A study of Mus musculus with 34 samples.

Results

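The miR-17 pharmacodynamic signature is a set of mRNAs selected in cultured cells for a miR-17 seed match in the 3′UTR and for their response to miR-17 inhibitors and mimics. Its in vivo form holds 10 genes, which are described here in mouse kidney, out of 23509 genes in the count tables. By what their products do they are *Zfp367*, *Clock* and *Mtf1* (transcription factors), *Polq* (DNA repair), *Mink1*, *Nagk* and *Cdc37l1* (kinases and a chaperone partner) and *Plekha3*, *Fyco1* and *Ddhd1* (membrane lipids and traffic). All 10 were found by symbol, and all 10 passed the filter on low counts that left 15644 genes for testing. The question was at what level each gene stood in each kidney, and how uniformly each answered treatment with RGLS4326, a 9-base anti-miR-17 oligonucleotide complementary to bases 1 to 9 of miR-17.

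Whole-kidney mRNA was sequenced from 34 mice on the C57BL6 background, 1 library per mouse, at postnatal day 28. *Pkd2*-KO mice (Pkhd1/cre; Pkd2 F/F, spelled Pdk2KO in the sample titles) received RGLS4326 at 20 mg/kg (n = 11) or PBS (n = 11) subcutaneously on postnatal days 10, 11, 12 and 19. The controls were untreated non-transgenic mice of the same strain and age (UNT, n = 12), whose *Pkd2* alleles are not stated. Cre under the *Pkhd1* promoter is active in tubule epithelium, mainly collecting ducts, so other kidney cells of the *Pkd2*-KO mice keep *Pkd2*. *Pkd2* was at 274 ± 34.4 CPM in UNT kidneys (SD, n = 12), 160.1 ± 32.2 CPM in PBS kidneys and 209.8 ± 23.8 CPM in RGLS4326 kidneys (both n = 11). Library sizes ran from 17603122 to 54981992 reads in genes. The share of reads that the counter placed in no gene, called the unassigned share below, was 9.84% to 11.3% in UNT, 5.18% to 8.995% in PBS and 4.94% to 12.0% in RGLS4326 libraries. Library numbers in the table names run in 3 separate series, called library blocks here, each with 3 or 4 mice of every group. Levels are CPM, read counts relative to library size after TMM scaling, and all SD values are between mice.

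A microRNA pairs with the 3′UTR of a target mRNA through its seed, bases 2 to 8, and lowers the stability and translation of that mRNA. Blocking the microRNA is therefore known to raise its targets, although by modest amounts and not in every tissue. The miR-17 family is made from several gene clusters, and the cluster that holds miR-17 is known to promote cyst growth in mouse models of polycystic kidney disease, which is the reason for inhibiting it. The mature microRNAs with the miR-17 seed were read from RefSeq (GRCm38.p6), where 7 matched. They are shown because they share bases 2 to 8, in capitals, which lie within the stretch that the oligonucleotide covers. The last, mmu-miR-6383, shares these bases but lies outside the clusters that the paper names for the family.
mmu-miR-17-5p: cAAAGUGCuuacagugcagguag
mmu-miR-20a-5p: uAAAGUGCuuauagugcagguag
mmu-miR-20b-5p: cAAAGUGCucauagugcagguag
mmu-miR-93-5p: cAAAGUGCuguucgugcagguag
mmu-miR-106a-5p: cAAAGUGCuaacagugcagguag
mmu-miR-106b-5p: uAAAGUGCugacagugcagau
mmu-miR-6383: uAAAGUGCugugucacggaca

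For every signature gene the longest 3′UTR in GENCODE M21 (GRCm38) was taken, and 3 kinds of match were searched on the mRNA strand: GCACTTTA (8mer), GCACTTT without the final A (7mer-m8) and CACTTTA without the leading G (7mer-A1). Every one of the 10 genes held at least 1 match of 7 or 8 bases, against 19.2% of all 19176 symbols with a 3′UTR. Since a seed match was a condition for entry to the signature, these counts describe the choice of genes. The 8mer was present in 8 of the 10 genes and in 3.65% of all symbols. The 3′UTRs of the members ran from 771 bases (*Mink1*) to 7016 bases (*Ddhd1*), against a median of 1004 over all symbols, and longer 3′UTRs hold more matches. Windows around the match, ending at the base opposite position 1 of the microRNA, are shown for the genes on which the treatment comparison turns and for *Nagk*, which did not pass that test, with the match in capitals.
Mink1 8mer, chr11:70614211-70614218, plus strand: cctcattttctgaaaGCACTTTA
Polq 7mer-m8, chr16:37094877-37094883, plus strand: tgaaaaatgcacttaGCACTTTg
Zfp367 7mer-m8, chr13:64135149-64135155, minus strand: gggtgagagagaattGCACTTTt
Zfp367 7mer-m8, chr13:64135001-64135007, minus strand: cagttctcacaggaaGCACTTTg
Cdc37l1 8mer, chr19:29016189-29016196, plus strand: acttttatgggtgctGCACTTTA
Clock 8mer, chr5:76212851-76212858, minus strand: tttgaaaggtaataaGCACTTTA
Plekha3 8mer, chr2:76695690-76695697, plus strand: ccttaggatttctctGCACTTTA
Plekha3 8mer, chr2:76696679-76696686, plus strand: gagttagaatgatcaGCACTTTA
Nagk 8mer, chr6:83802538-83802545, plus strand: tggaagaaaataaatGCACTTTA
*Clock* had 3 further 7mer-m8 matches, *Ddhd1* 1 8mer and 2 7mer-m8 matches, *Fyco1* 1 of each and *Mtf1* 1 8mer. The *Nagk* match began at base 3 of the 3′UTR, right behind the stop codon. *Polq* and *Zfp367* were the members with no 8mer.

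**Figure D1:**
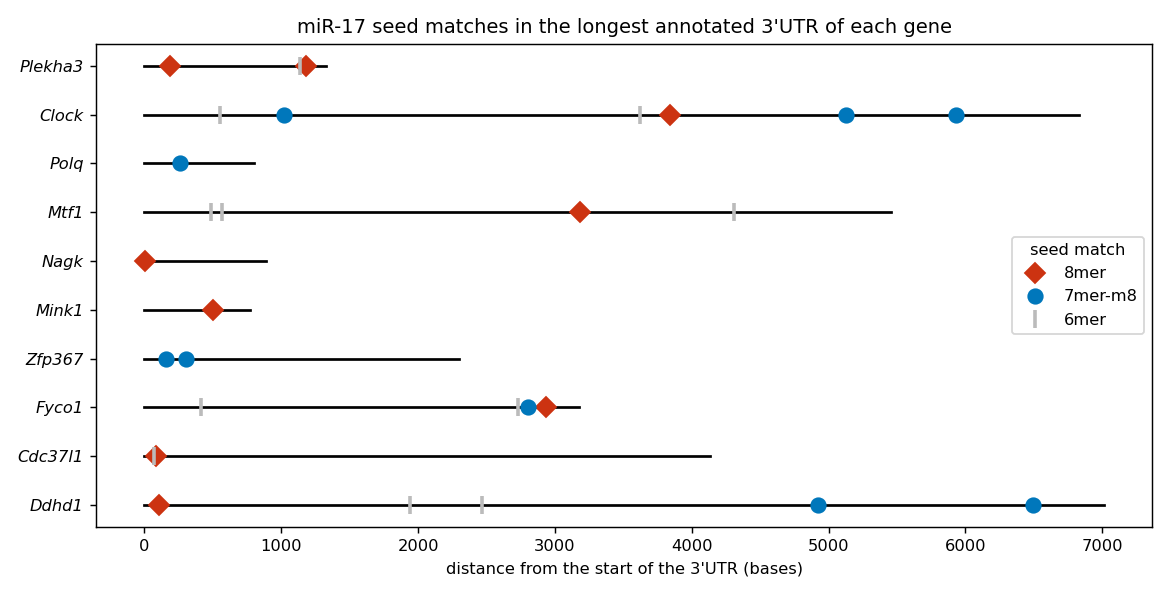
Position of matches to the miR-17 seed in the longest 3′UTR per gene, in bases from the start of the 3′UTR; lines show the 3′UTR, diamonds 8mers, circles 7mer-m8 matches and grey ticks 6-base matches. *Nagk* has its 8mer at base 3 and *Clock* carries 4 matches of 7 or 8 bases over 6831 bases.

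The paper built the signature in cell lines as a readout of miR-17 activity. RGLS4326 against PBS is the comparison of a miR-17 inhibitor with its control here. *Mink1*, *Polq*, *Zfp367*, *Cdc37l1*, *Clock* and *Plekha3* were higher in RGLS4326-treated kidneys, between 1.16-fold (*Plekha3*) and 1.75-fold (*Polq*), in edgeR's quasi-likelihood test at a Benjamini-Hochberg adjusted p under 0.05. *Ddhd1*, *Mtf1*, *Fyco1* and *Nagk* did not pass. So 6 of the 10 members were called higher and 0 lower, whereas 15.3% of all tested genes were called higher and 18.5% lower. The paper took these 10 from its 18 genes as representative, for its *Pkd2*-KO mice, and gives no rule for the choice. Whether the response in such mice entered that choice is not known. At an unadjusted p under 0.05 the members counted 7 and 0, while 7262 of the 15644 genes passed in either direction. DESeq2 called 7 and 0 members, beside 2568 and 3132 of the 15644 genes. The median log2 fold change was 0.31 over the 10 members and 0.0022 over all tested genes. By size of the log2 fold change, the called members stood between the 76.9th (*Plekha3*) and the 98.6th (*Polq*) percentile of the 15644 genes, and *Nagk* at the 47.5th. The number of genes called in this comparison was 5280 in all, and 89 with the unassigned share as a covariate, where *Mink1* was the only member called. That share differs between the groups, with medians of 6.62% in PBS, 8.38% in RGLS4326 and 10.9% in UNT libraries. It was measured after treatment, so a fit with this covariate cannot tell the share and the group apart.

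In PBS vs UNT, 9 of the 10 members were called (82.1% of all tested genes), 5 higher (43.1%) and 4 lower (39.0%). In RGLS4326 vs UNT also 9 were called (77.7%), 6 higher (40.8%) and 3 lower (36.9%). These shares are close to the background, so the counts against UNT say nothing particular about the members. The split depended on the scaling. With DESeq2 size factors in edgeR, PBS vs UNT called 2 members higher and 4 lower (6471 and 6345 of 15644 genes). DESeq2 itself called 3 and 4 (6490 and 6364 genes). With libraries scaled on the study's 6 reference genes, PBS vs UNT called 0 members higher and 9 lower (22.7% and 62.9% of all tested genes), and RGLS4326 vs UNT 1 higher and 4 lower (23.2% and 59.0%).

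Seed matches and calls were set side by side, with no test over the 10 genes. Of the 5 members with more than 1 match, 3 were called (*Plekha3*, *Clock* and *Zfp367*), and of the 5 with a single match also 3 (*Mink1*, *Polq* and *Cdc37l1*). When all annotated 3′UTRs of a gene were read instead of the longest, *Cdc37l1* had 3 matches, and the counts became 4 of 6 and 2 of 4. Both members without an 8mer were called, as were 4 of the 8 with one. Over all tested genes with a match, 26.0% were called higher with a median log2 fold change of 0.09, and over those with more than 1 match 33.3% and 0.17. With an 8mer these were 30.3% and 0.14, and with a match but no 8mer 24.9% and 0.08.

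*Mink1* encodes a kinase of the STE20 family that acts upstream of stress-activated MAP kinases. It was at 83.8, 97.4 and 110.1 CPM (lowest, median, highest) in PBS kidneys, at 121, 129.9 and 142 CPM in RGLS4326 kidneys and at 125, 155 and 160.1 CPM in UNT kidneys. Every one of the 11 treated kidneys was above every one of the 11 PBS kidneys, and 8 of the 11 lay within the UNT range while 3 lay below it. The log2 fold change of RGLS4326 vs PBS was 0.40 (SE 0.05, edgeR adjusted p = 2.11e-05), and *Mink1* ranked 1 of 15644 genes by its p-value. Groups separated in this way, higher after treatment, for 7 genes in all or 0.0447% of those tested. The other 6, named after their values were seen, were *Abi3bp*, *Clcc1*, *Fat3*, *Gnb4*, *Slc40a1* and *Tnks2*. PBS kidneys were below UNT kidneys (log2 fold change -0.60, SE 0.05, adjusted p = 1.18e-13), and the ranges did not overlap, which held in that direction for 19.8% of tested genes. Treated kidneys stayed below UNT (-0.20, SE 0.05, adjusted p = 0.000392), a call lost in 1 of 11 other settings (highest adjusted p = 0.195). The treatment difference was 0.38, 0.35 and 0.48 in the 3 library blocks taken alone (edgeR adjusted p = 0.0731, 0.00954 and 0.231). It passed there in block 2 only. With the unassigned share as a covariate it was 0.36 (adjusted p = 0.000777). *Mink1* shares 220 bases (3.50%) of its exons with Gm12316, annotated on the other strand.

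**Figure D2:**
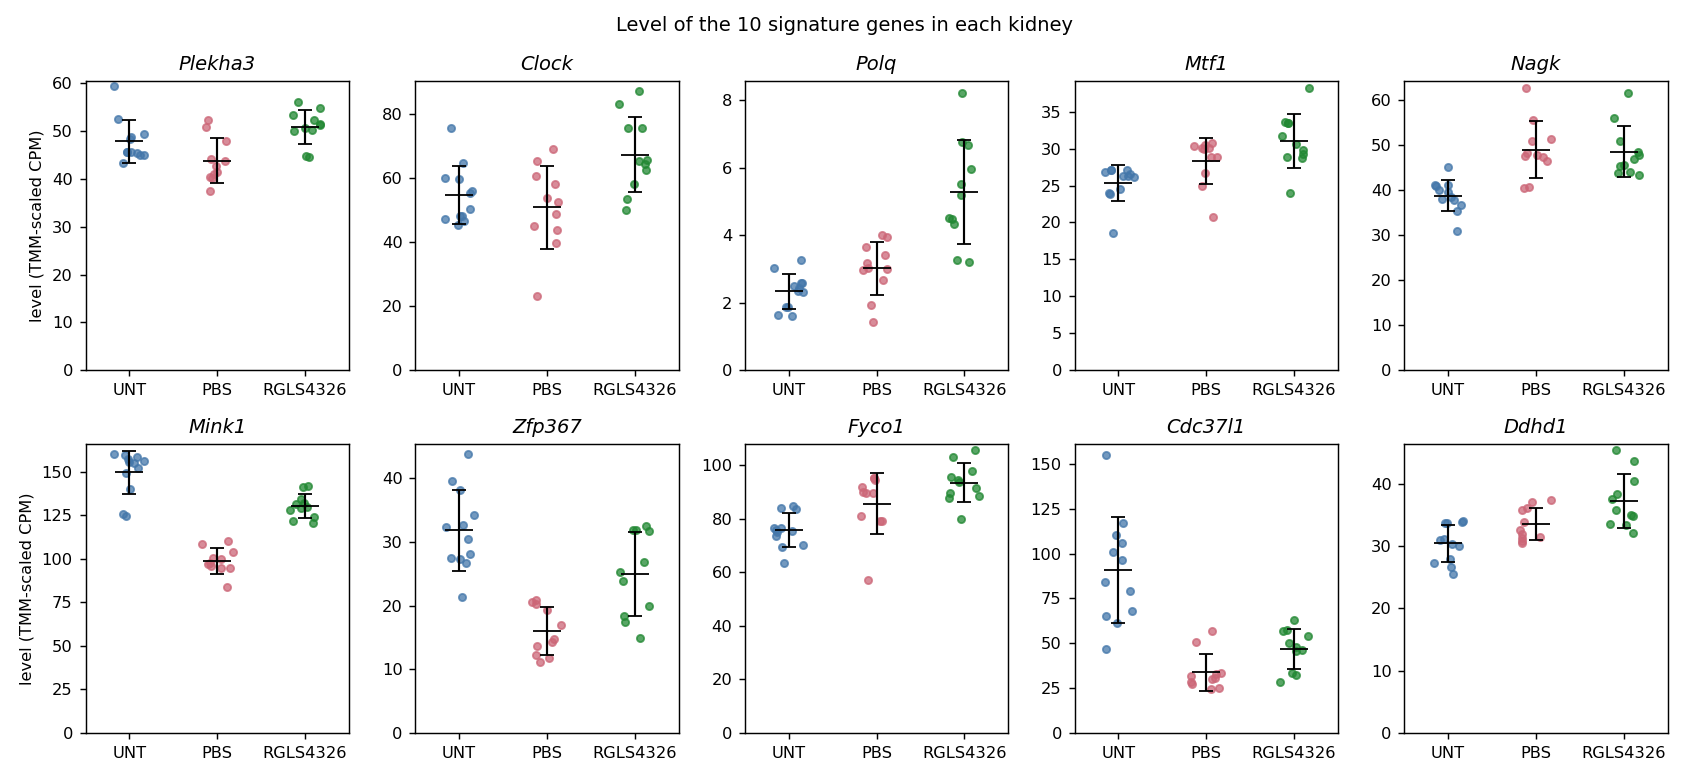
Level of each gene in each kidney, in TMM-scaled CPM on axes that start at 0; points are mice (UNT n = 12, PBS n = 11, RGLS4326 n = 11), and black bars are the mean and SD. In *Mink1* all treated kidneys (121 to 142 CPM) lie above all PBS kidneys (83.8 to 110.1 CPM), while in *Nagk* PBS and treated kidneys cover nearly the same range.

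*Polq* and *Zfp367* had the largest log2 fold changes of the 10 genes in RGLS4326 vs PBS. *Polq* encodes DNA polymerase theta, which joins broken DNA ends through short stretches of matching sequence. It was the scarcest member, with 46 to 227 counts per library, and stood at 1.42, 3.02 and 3.99 CPM in PBS, 3.195, 5.199 and 8.22 CPM in RGLS4326 and 1.62, 2.39 and 3.26 CPM in UNT kidneys (lowest, median, highest). All 11 treated kidneys were above the PBS median and 9 above the highest PBS kidney. On the log2 scale RGLS4326 exceeded PBS by 0.81 (SE 0.16, edgeR adjusted p = 0.00167). *Polq* was not low in PBS kidneys to begin with: PBS vs UNT gave 0.37 (SE 0.16, adjusted p = 0.0337), a direction that reversed to -0.14 (adjusted p = 0.481) with scaling on the reference genes. That call was also lost in 8 of 23 fits that left out a mouse (highest adjusted p = 0.067), with DESeq2 size factors in edgeR (adjusted p = 0.0555) and with no filter on low counts (adjusted p = 0.0736). RGLS4326 kidneys were above UNT by 1.18 (SE 0.16, adjusted p = 3.35e-08), 10 of 11 of them above the highest UNT kidney.

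*Zfp367* encodes a zinc finger transcription factor. It was at 11.1, 14.8 and 20.8 CPM in PBS, 14.9, 25.2 and 32.6 CPM in RGLS4326 and 21.3, 31.5 and 43.8 CPM in UNT kidneys. All PBS kidneys lay below all UNT kidneys, and treated kidneys spread over both ranges, 7 within the UNT range and 4 below it. The log2 fold change was -0.99 (SE 0.14, adjusted p = 4.31e-08) for PBS vs UNT and 0.64 (SE 0.14, edgeR adjusted p = 0.00287) for RGLS4326 vs PBS. After treatment the gene was still lower than in UNT (-0.35, SE 0.14, adjusted p = 0.0189), except in library block 2 alone, where the difference was 0.01 (adjusted p = 0.96), and with the unassigned share as a covariate, where it was -0.14 (adjusted p = 0.305). *Zfp367* overlaps Gm47513 on the other strand over 603 bases (10.9% of its exons).

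Genes of DNA replication and mitosis were read beside *Polq* and *Zfp367*. Of 12 such genes, 10 were higher in PBS than in UNT kidneys, *Tyms*, thymidylate synthase, was lower, and *Rrm2*, a subunit of ribonucleotide reductase, did not pass. In RGLS4326 vs PBS, 0 of the 12 were called by edgeR and 0 by DESeq2, with 2 higher at an unadjusted p under 0.05. These were *Top2a*, topoisomerase II alpha, at 0.40 (edgeR adjusted p = 0.0782) and *Mki67*, a proliferation marker, at 0.38 (adjusted p = 0.0879).

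*Cdc37l1*, which encodes an HSP90 co-chaperone, was the member with the largest log2 fold change in PBS vs UNT, in either direction. Its level was 46.6, 90.2 and 155 CPM in UNT, 24.6, 30.8 and 56.7 CPM in PBS and 28.5, 48.1 and 63.2 CPM in RGLS4326 kidneys. All PBS kidneys were below the UNT median and 9 of 11 below the lowest UNT kidney. The log2 fold change was -1.43 (SE 0.17, adjusted p = 1.50e-09) for PBS vs UNT, 0.47 (SE 0.17, edgeR adjusted p = 0.0316) for RGLS4326 vs PBS and -0.95 (SE 0.17, adjusted p = 3.85e-06) for RGLS4326 vs UNT. In library block 2 alone the last was -0.39 and did not pass (adjusted p = 0.246), and PBS vs UNT was -0.79 (adjusted p = 0.0165). The treatment call was the only one of the 6 that depended on single mice. It was lost in 6 of the 22 fits that left out a mouse of these groups (PBS replicates 4, 9 and 11 and RGLS4326 replicates 5, 6 and 9), with an adjusted p of at most 0.0615. *Cdc37l1* shares 430 bases (3.52%) of its exons with *Ak3*, a mitochondrial adenylate kinase on the other strand, and the strand setting of the counting was not given in the sources used here. *Ak3*, named after its values were seen, had 440 ± 58.2 CPM in UNT kidneys, against 213 ± 18.3 CPM in PBS kidneys (log2 fold change -1.05, SE 0.07, adjusted p = 8.22e-17), with 0.08 (SE 0.07, adjusted p = 0.359) for RGLS4326 vs PBS.

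Markers of several cell types differed between the same groups as *Cdc37l1*, *Zfp367* and *Mink1*, in both directions. All 7 proximal tubule markers were lower in PBS than in UNT, and 5 of 7 were higher in RGLS4326 than in PBS. Their summed level was 8656 to 12388 CPM in UNT, 725 to 2615 CPM in PBS and 1757 to 2948 CPM in RGLS4326 kidneys, and none was at 0. Of 4 distal convoluted tubule markers, all were lower in PBS and 2 higher after treatment, with summed levels of 2018 to 2756, 301 to 515 and 419 to 783 CPM in UNT, PBS and RGLS4326. Of 4 thick ascending limb markers, 3 were lower and 1 higher in PBS, and 2 were higher and 1 lower after treatment. Collecting duct principal cell markers had 5 of 5 higher in PBS than in UNT and 3 of 5 lower after treatment, at 383 to 681, 502 to 1791 and 288 to 1533 CPM. Of 4 intercalated cell markers, 3 were lower and 1 higher in PBS, and 0 were higher and 1 lower after treatment. Podocyte markers were 3 of 4 lower and 1 higher in PBS and 3 of 4 higher after treatment, and endothelial markers 3 of 5 lower and 2 higher in PBS and 4 of 5 higher after treatment. Of 5 tested macrophage markers all were higher in PBS and 3 lower after treatment, and of 6 fibroblast markers all were higher in PBS and 0 were called after treatment in edgeR (0 also by DESeq2 and at an unadjusted p under 0.05). Of 5 T cell markers 4 were higher in PBS and 4 lower after treatment. All 3 tested neutrophil markers were higher in PBS and 0 called after treatment by edgeR (2 lower at an unadjusted p under 0.05, 1 lower by DESeq2), and the 1 tested erythroid marker was lower in PBS and not called after treatment. In whole kidney, fewer cells of a type and less RNA per cell cannot be told apart, and the part of these shifts in the members' changes was not tested.

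*Clock* encodes a transcription factor at the core of the circadian clock. It was at 23.3, 52.7 and 69.2 CPM in PBS, 50.02, 65.5 and 87.2 CPM in RGLS4326 and 45.3, 52.9 and 75.9 CPM in UNT kidneys. PBS replicate 9 stood alone at 23.3 CPM, and without it the log2 fold change of RGLS4326 vs PBS was 0.34 (adjusted p = 0.0207). With all mice it was 0.40 (SE 0.12, edgeR adjusted p = 0.0153), with 10 of 11 treated kidneys above the PBS median and 4 above the highest PBS kidney. PBS vs UNT was -0.10 (SE 0.12, adjusted p = 0.429), so *Clock* was the 1 member not called in that comparison under TMM scaling. It was called lower with scaling on the reference genes (-0.61, adjusted p = 0.000149), where *Polq* was the 1 member not called, and in library block 3 alone (-0.57, adjusted p = 0.0308). It was above UNT after treatment (0.30, SE 0.12, adjusted p = 0.025), which turned to -0.10 (adjusted p = 0.508) with scaling on the reference genes. In the 3 library blocks alone that comparison gave 0.039, 0.77 and 0.094 (adjusted p = 0.732, 0.000397 and 0.731), so it was called in block 2 and not in blocks 1 and 3, and without RGLS4326 replicate 5 or 6 the call was lost (highest adjusted p = 0.0557). The treatment difference of *Clock* ranged from 0.07 in library block 1 to 0.54 and 0.67 in blocks 2 and 3.

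Of 12 tested partner and output genes of the clock, 8 were lower and 2 higher in PBS than in UNT kidneys. The 2 higher were *Npas2*, a paralogue of *Clock*, at 1.60 and *Arntl*, whose product pairs with the CLOCK protein, at 0.69. After RGLS4326, 3 were higher than in PBS, namely *Hlf* (0.59, adjusted p = 0.00505), *Nr1d2* (0.45, adjusted p = 0.0141) and *Per3* (0.37, adjusted p = 0.0228), and the other 9 did not pass. The median of the 12 was 0.07, beside 0.40 for *Clock*. The hour of harvest is not in the labels.

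*Plekha3* encodes a protein that binds phosphatidylinositol 4-phosphate at the Golgi, and its spread between treated mice (CV 7.11%) was the smallest of the called members after *Mink1* (5.24%). It was at 37.5, 42.6 and 52.2 CPM in PBS, 44.5, 51.4 and 56.1 CPM in RGLS4326 and 43.3, 45.7 and 59.4 CPM in UNT kidneys. All 11 treated kidneys were above the PBS median, 8 of 11 PBS kidneys were below the lowest treated kidney, and all 11 treated kidneys lay within the UNT range. RGLS4326 vs PBS gave 0.22 on the log2 scale (SE 0.06, edgeR adjusted p = 0.00715), and 0.20, 0.18 and 0.30 in the 3 blocks. PBS vs UNT was -0.13 (SE 0.06, adjusted p = 0.0361), a call that was lost in 8 of 23 fits that left out a mouse, with the replicate number as a block (adjusted p = 0.0612), with only those 2 groups in the fit (adjusted p = 0.0655) and with the unassigned share as a covariate, where the difference was -0.0036 (adjusted p = 0.969). RGLS4326 vs UNT did not pass (0.09, SE 0.06, adjusted p = 0.146). With reference gene scaling treated kidneys were lower than UNT (-0.32, adjusted p = 0.000104), and with the covariate higher (0.15, adjusted p = 0.0225).

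**Figure D3:**
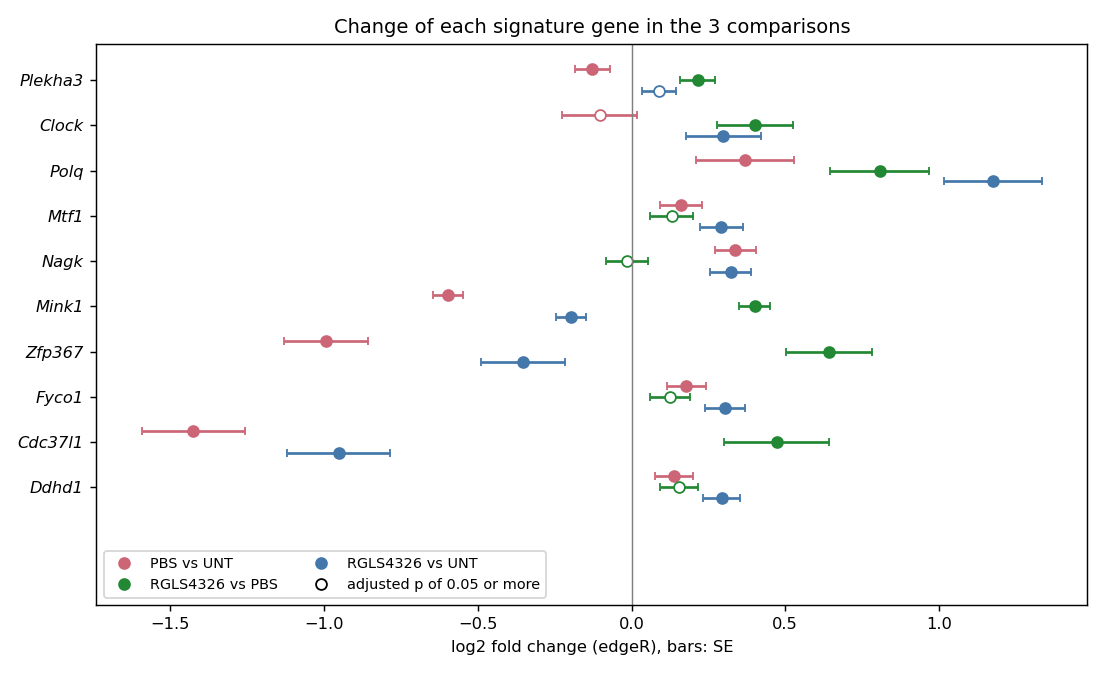
Log2 fold change of each gene in PBS vs UNT, RGLS4326 vs PBS and RGLS4326 vs UNT (edgeR, all 34 libraries), with bars for the SE; open circles did not pass an adjusted p of 0.05. The treatment comparison is above 0 for 9 genes, from 0.13 to 0.81, and -0.01 for *Nagk*.

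The 4 members that were not called in the treatment comparison were higher in PBS than in UNT kidneys under TMM scaling, as was *Polq*. In PBS vs UNT, DESeq2 did not call *Mtf1* (adjusted p = 0.0775) or *Ddhd1* (adjusted p = 0.118), and edgeR with the unassigned share as a covariate did not call *Nagk*, *Mtf1* or *Fyco1* (adjusted p = 0.442, 0.0828 and 0.161). *Ddhd1*, a phospholipase A1 that acts on phosphatidic acid, was nearest to the threshold. It was at 30.6, 32.6 and 37.4 CPM in PBS, 32.1, 35.9 and 45.5 CPM in RGLS4326 and 25.6, 30.7 and 34.1 CPM in UNT kidneys. RGLS4326 vs PBS was 0.15 (SE 0.06, edgeR adjusted p = 0.0519), and the gene passed in 8 of 22 fits that left out a mouse, in DESeq2 (adjusted p = 0.0496) and with library block as a covariate (adjusted p = 0.0366). *Mtf1*, the transcription factor that switches on metallothioneins in response to zinc, was at 20.8, 30.0 and 30.8 CPM in PBS, 23.97, 30.6 and 38.2 CPM in RGLS4326 and 18.6, 26.2 and 27.1 CPM in UNT kidneys, with 0.13 for RGLS4326 vs PBS (SE 0.07, adjusted p = 0.138). *Mtf1* shares 721 bases (8.09%) of its exons with 1110065P20Rik on the other strand, *Fyco1* 402 bases (4.54%) with AC165425.1 on the same strand, and *Ddhd1* 718 bases (5.10%) with Gm15601 on the other strand and 93 bases (0.661%) with *Mir5131* on the same strand. *Fyco1*, an adaptor that links autophagosomes to microtubule transport, was at 56.9, 89.6 and 95.1 CPM in PBS, 79.7, 93.6 and 105 CPM in RGLS4326 and 63.3, 75.4 and 84.7 CPM in UNT kidneys, also with 0.13 (SE 0.07, adjusted p = 0.127). For these 3 genes treated and PBS kidneys overlapped widely, with 6 to 10 of 11 treated kidneys above the PBS median. In each, 4 or 5 treated kidneys were above the highest PBS kidney. Some called members overlapped as much. *Mink1*, *Polq* and *Zfp367* had 11, 9 and 7 treated kidneys above the highest PBS kidney, but *Clock*, *Plekha3* and *Cdc37l1* had 4, 4 and 3.

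*Nagk*, which encodes the kinase that salvages N-acetylglucosamine, showed no detectable difference between treated and PBS kidneys. It was at 40.4, 47.8 and 62.6 CPM in PBS and 43.3, 46.9 and 61.5 CPM in RGLS4326 kidneys, with 4 of 11 treated kidneys above the PBS median. The log2 fold change was -0.01 (edgeR adjusted p = 0.878), and the interval of 2 SE on either side ran from -0.15 to 0.12. Its level in UNT kidneys was 30.9, 39.0 and 45.04 CPM, with 9 of 11 PBS and 8 of 11 treated kidneys above the highest UNT kidney, and PBS vs UNT was 0.34 (SE 0.07, adjusted p = 2.31e-05). With the unassigned share as a covariate that difference was 0.068.

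For *Nagk*, *Mtf1*, *Fyco1* and *Ddhd1* the direction of PBS vs UNT depended on the scaling. With libraries scaled on the 6 reference genes, the log2 fold changes were -0.19, -0.36, -0.34 and -0.38, all 4 called lower (highest adjusted p = 0.00749). That scaling moved the median of all tested genes from 0.04 to -0.48 in PBS vs UNT and to 0.11 in RGLS4326 vs PBS. Of the 6 reference genes, 4 were higher in PBS than in UNT under TMM scaling, led by *Gusb* at 1.61 and *B2m* at 1.08, *Tbp* was lower (-0.43) and *Pak1ip1* did not pass. In RGLS4326 vs PBS, 1 of the 6 was called, *Gusb* at -0.21 (adjusted p = 0.034). With reference scaling the treatment comparison called 7 members higher, the same 6 and *Ddhd1*, and 0 lower, beside 21.7% of all tested genes higher and 6.11% lower.

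Metallothionein and zinc transporter genes were read beside *Mtf1*. *Mt1*, *Mt2* and *Slc39a10* were higher in PBS than in UNT kidneys, by 1.002, 2.499 and 0.51, and the zinc exporter *Slc30a1* was lower (-0.84). In RGLS4326 vs PBS only *Slc30a1* was called, at 0.26 (adjusted p = 0.0283), while *Mt1* and *Mt2* were at -0.35 and -0.33 and did not pass.

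With the disease and treatment comparisons set side by side, 4 members were lower in PBS than in UNT and higher in RGLS4326 than in PBS, namely *Mink1*, *Zfp367*, *Cdc37l1* and *Plekha3*, a pattern shared by 11.2% of tested genes. A further 2, *Clock* and *Polq*, were called higher in RGLS4326 than in both other groups, as were 3.42% of tested genes. These patterns are under TMM scaling. With scaling on the reference genes, *Clock* (-0.61, then 0.51) and *Ddhd1* (-0.38, then 0.27) were also called lower in PBS and higher after treatment. *Polq* was then still called above both groups, and *Clock* was not (-0.10 vs UNT). For *Clock* the call against UNT was present in library block 2 and not in the other blocks, as given above. The PBS vs UNT call of *Plekha3* and the treatment call of *Cdc37l1* were lost in some fits that left out a mouse, also given above. The comparisons share the PBS kidneys, so opposite signs in them are not independent. Of the other 8 genes of the 18-gene signature, all 8 were called higher in PBS than in UNT (median 0.74, from 0.30 for *D030056L22Rik* to 2.11 for *Tgfbr2*), and in RGLS4326 vs PBS 0 were called higher and 2 lower by edgeR and by DESeq2 (0 and 2 also at an unadjusted p under 0.05), *Wfs1* (-0.41, adjusted p = 0.00981) and *Pfkp* (-0.18, adjusted p = 0.0201). *Nagk*, *Mtf1*, *Fyco1* and *Ddhd1*, among the 10, were likewise called higher in PBS and not called after treatment. No test of the difference between these lists was made.

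The mean of the 10 genes moved by 0.31 on the log2(CPM + 1) scale between PBS and RGLS4326 kidneys. *Polq* supplied 20.2% of that sum, *Zfp367* 19.1%, *Cdc37l1* 14.9%, *Clock* 13.6% and *Mink1* 12.7% and the other 5 genes between -0.39% (*Nagk*) and 6.85% (*Plekha3*). Leaving out 1 gene at a time gave means between 0.28 and 0.35. Between UNT and PBS kidneys the mean moved by -0.21, which became -0.09 without *Cdc37l1*. The study's score is taken relative to its reference genes. With libraries scaled on these, the mean of the 10 edgeR log2 fold changes was -0.72 in PBS vs UNT (-0.59 without *Cdc37l1*) and 0.44 in RGLS4326 vs PBS, against -0.21, -0.07 and 0.33 under TMM scaling.

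Individual mice differed in how many members were raised. In the 11 RGLS4326 kidneys, 7 to 10 of the 10 genes (median 8) were above the PBS median of the gene, while 45.3% to 52.1% of all tested genes were. In UNT kidneys the number was 4 to 6, and in PBS kidneys themselves 1 to 8. Replicate 8 had all 10 genes above the PBS median, and replicates 10 and 11 had 7. Treated replicates 4 and 10 were the lowest treated kidneys for *Polq*, *Zfp367*, *Clock* and *Plekha3*, and these were also the treated libraries with the smallest unassigned share, 4.94% and 6.14%.

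**Figure D4:**
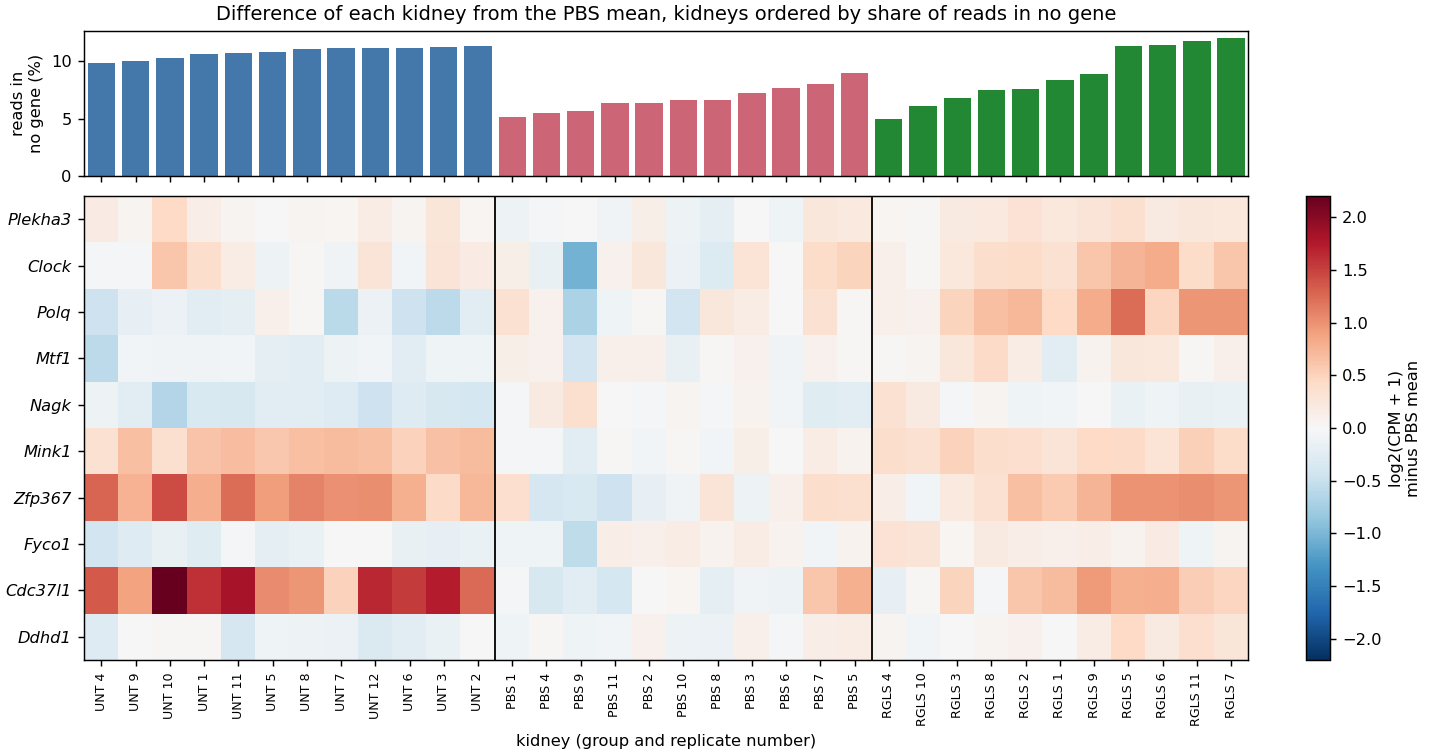
Upper panel, unassigned share (reads in no gene, %) per kidney, with UNT in blue, PBS in red and RGLS4326 in green; lower panel, log2(CPM + 1) of each gene minus the PBS mean, with kidneys ordered by that share within each group. *Mink1* is raised to a like degree in all treated kidneys, whereas *Zfp367*, *Polq* and *Clock* deepen from left to right among them.

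Because of the drop in calls with that covariate, levels were set beside the unassigned share. Among treated libraries, 4 stood at 11.3% to 12.0% and the other 7 at 8.92% or below. The 4 comprise all 3 treated mice of library block 2 and 1 of block 3, and the 7 hold none of block 2, so the difference between the 4 and the 7 is in large part also one between blocks. With library block as a covariate 7 members and 5859 genes were called, with the unassigned share 1 and 89. *Zfp367* was at 32.0 ± 0.386 CPM in the 4 samples and 20.9 ± 4.47 CPM in the 7, *Polq* at 6.53 ± 1.54 and 4.57 ± 1.07 CPM, *Clock* at 77.9 ± 9.56 and 61.5 ± 8.56 CPM and *Mink1* at 132 ± 8.01 and 129.6 ± 6.59 CPM. *Ddhd1* was at 42.1 ± 3.15 and 34.7 ± 1.79 CPM, beside a PBS mean of 33.5 CPM. All 7 samples with the smaller share were above the PBS median for *Mink1*, *Zfp367*, *Polq* and *Plekha3*. Within the 7 samples r with the share was 0.83 to 0.87 for *Clock*, *Plekha3*, *Cdc37l1*, *Zfp367* and *Polq* and -0.83 for *Nagk* (exact permutation p from 0.0131 to 0.0246, adjusted p from 0.0601 to 0.0615; Spearman's rho 0.75 to 0.93 and -0.68, exact permutation p from 0.00675 to 0.11). *Mink1* was at r = -0.02 (rho = 0, exact permutation p = 0.961 and 1). In the 11 PBS samples the strongest were *Cdc37l1* at r = 0.77 (rho = 0.58) and *Nagk* at r = -0.73 (rho = -0.70, permutation p = 0.00506 and 0.0655 for *Cdc37l1* and 0.011 and 0.021 for *Nagk*). There *Ddhd1* correlated with the share at r = 0.63 (rho = 0.54, permutation p = 0.0398 and 0.0944, adjusted p = 0.0796 and 0.189). *Mink1* was at r = 0.62 in the PBS samples (rho = 0.60, permutation p = 0.0388 and 0.0561, adjusted p = 0.0796 and 0.166) and *Zfp367* at r = 0.49 (rho = 0.50, permutation p = 0.128 and 0.119, adjusted p = 0.183 and 0.199). Leaving out the 2 samples farthest from the median share gave r from 0.60 (*Cdc37l1*) to 0.90 (*Zfp367*) for those 5 genes, -0.72 for *Nagk* and -0.38 for *Mink1* among the treated samples, and 0.72 for *Cdc37l1*, -0.80 for *Nagk*, 0.78 for *Zfp367* and 0.71 for *Mink1* among the PBS samples. Of 20 such relations, 10 genes in the 7 treated samples and in the 11 PBS samples, 0 passed Benjamini-Hochberg adjustment (smallest adjusted permutation p = 0.0601), and the library blocks were too small for values of their own. *Mir17hg*, the polyadenylated host transcript of the miR-17 cluster, which does not measure the mature microRNA, was at 8.65 to 13.9 CPM in the 4 samples, 0.72 to 5.23 CPM in the 7, 1.098 to 3.999 CPM in PBS and 7.67 to 11.6 CPM in UNT kidneys. With the share as a covariate, the treatment differences were 0.54 for *Polq*, 0.34 for *Zfp367*, 0.23 for *Cdc37l1*, 0.19 for *Clock* and 0.15 for *Plekha3*, with adjusted p from 0.0962 to 0.441.

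By the difference of mean log2(CPM + 1), 8 members were above 0 in RGLS4326 vs PBS in each of the 3 library blocks, against 28.3% of all tested genes. The exceptions were *Nagk* and *Mtf1*. In edgeR fits of single blocks, the log2 fold changes in block 1 were small for *Clock* (0.07), *Ddhd1* (0.01) and *Mtf1* (-0.03). In block 3 *Polq* reached 1.11 by that measure. In a test of whether the treatment difference depends on the block, no member passed (edgeR adjusted p from 0.865 to 0.992), and 0 of 15233 genes (0.0%) did in edgeR, with 796 at an unadjusted p under 0.05.

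**Figure D5:**
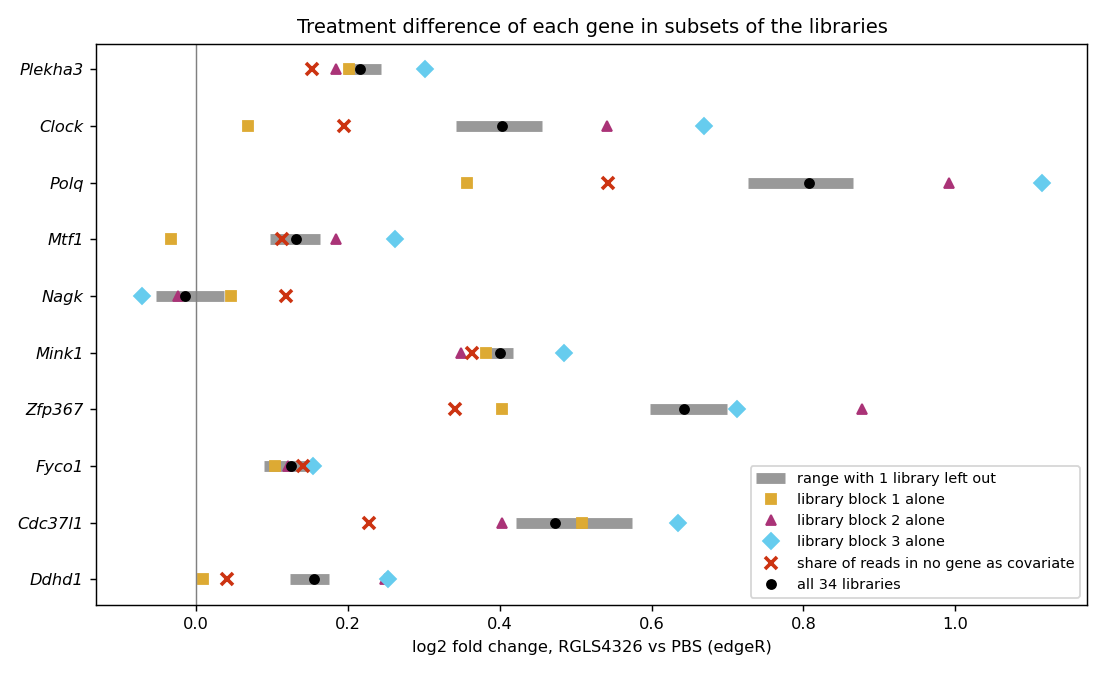
Log2 fold change of RGLS4326 vs PBS for each gene with all 34 libraries (black), with 1 library left out in turn (grey range), in each library block alone (coloured symbols) and with the unassigned share as covariate (cross). *Mink1* stays between 0.35 and 0.48 in all of these, while *Clock* runs from 0.07 to 0.67 and *Polq* from 0.36 to 1.11.

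The members did not vary as a unit between mice of a group. After subtraction of the group means, the 45 pairs of members had a median Pearson r of 0.27 over the 34 libraries, with 11 pairs above 0.5 and 5 below -0.5. *Plekha3* and *Cdc37l1* were the closest pair (r = 0.73), and *Clock* and *Nagk* the most opposed (r = -0.78). *Nagk* took part in all 5 pairs below -0.5. These values describe libraries that share depth and composition, so no p is given. By the same measure over all tested genes, *Polq* was most like *Atad2* (r = 0.87), *Clock* like *Vps13a* (0.93) and *Med13* (0.93), *Zfp367* like *Ankrd32* (0.86), *Cdc37l1* like *Ttpa* (0.94), *Nagk* like *Aprt* (0.93), *Mtf1* like *Smcr8* (0.87), *Fyco1* like *Kif13b* (0.87), *Ddhd1* like *Chka* (0.85) and *Plekha3* like *Rfwd2* (0.80). *Mink1* had the weakest partner, Gm15800 at 0.76, followed by *Pkd1* at 0.75.

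Compared per length of the union of exons, *Mink1* was the most abundant member in UNT kidneys at 23.8 CPM per kb, followed by *Plekha3* at 15.3, and *Polq* the least at 0.241 CPM per kb. *Fyco1*, *Nagk* and *Cdc37l1* stood close together at 8.53, 8.29 and 7.43 CPM per kb. With the length of the longest transcript instead, *Mink1* stayed first at 29.9 CPM per kb, *Nagk* moved to the second place at 20.2, and *Cdc37l1* rose to 17.5 while *Fyco1* stood at 9.51.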

How the data were processed

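Stranded poly(A) libraries (TruSeq) of 34 kidneys were aligned by the authors to GRCm38 (mm10). The submitters' processing notes name Trim Galore, STAR, SAMtools 1.1, Picard 1.119, FastQC 0.11.2 and HTSeq 0.6.1. The strand setting and annotation of the counting are not given in the sources used here. The deposited values are raw read counts per gene, 1 table per mouse, with no normalization or pooling; no pair of libraries was identical (0 pairs). Totals of unassigned reads were left out of library sizes; reads ambiguous between genes were 0.323% to 0.488%.

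Counts were scaled by TMM, filtered with filterByExpr and tested with edgeR 4.0.16 (R 4.3.3; glmQLFit, glmQLFTest, two-sided), all 34 libraries in 1 fit of 3 groups, with adjustment over 15644 genes. Alternatives were DESeq2 1.42.0 and its size factors, scaling on the study's 6 reference genes, no filter, the 2 groups alone, covariates, each library block, the replicate number as a block and leaving out each mouse. Group sizes follow the labels; the publication describes fewer PBS mice. Labels do not state whether mice shared litters. On simulated data for RGLS4326 vs PBS, 92 of 100 genes changed by 1 and 69 of 99 changed by 0.5 on the log2 scale were recovered among 15577 tested, with 8 false calls. Python 3.11.15 with scipy 1.17.1 was used for summaries and permutation tests (100000 resamples, or exact under 10 values, two-sided).

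The members and lists were chosen with earlier results of these data known. Named genes were the 10 members, the rest of the study's signature, its reference genes, *Pkd2*, miR-17 hosts, lists for clock, zinc and cell cycle, segment and immune markers, and the genes most like each member by Pearson r of log2(CPM + 1) after subtraction of group means. *Mcm7*, host of a second miR-17 family cluster, was at 0.69 in PBS vs UNT and -0.07 in RGLS4326 vs PBS.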

Additional observations from a re-analysis of the deposited data

How the results depend on the processing

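Terms are as above, and log2 fold changes are given where a direction turned. With RGLS4326 vs PBS, 6 members and 5280 genes were called. With the unassigned share as a covariate these were 1 and 89, in library block 1 alone 0 and 54, in block 2 alone 5 and 4065 (*Plekha3* and *Cdc37l1* lost, *Ddhd1* gained), and in block 3 alone 0 and 0 (edgeR; 3421 and 2826 genes at an unadjusted p under 0.05 in blocks 1 and 3). Leaving out 1 mouse gave 5 to 7 members and 4023 to 6209 genes. In PBS vs UNT, where 9 members were called, 5 of them higher, the covariate and library block 2 alone each gave 5, DESeq2 7 (3 higher), DESeq2 size factors and no filter 6 each (2 higher), and leaving out 1 mouse 6 to 9 members and 12712 to 12916 genes. In RGLS4326 vs UNT, scaling on the reference genes gave 5 members and library block 3 alone 4 in place of 9, and leaving out 1 mouse 8 to 10 members and 12008 to 12207 genes. With scaling on the reference genes, PBS vs UNT turned for *Polq* (-0.14), *Mtf1* (-0.36), *Nagk* (-0.19), *Fyco1* (-0.34) and *Ddhd1* (-0.38), RGLS4326 vs PBS for *Nagk* (0.10), and RGLS4326 vs UNT for *Plekha3* (-0.32), *Clock* (-0.10), *Mtf1* (-0.12), *Nagk* (-0.094), *Fyco1* (-0.12) and *Ddhd1* (-0.11), beside a shift in the median of all genes of -0.52, 0.11 and -0.41. With all annotated 3′UTRs, *Cdc37l1* had 3 seed matches in place of 1. With the unassigned share as a covariate, *Clock* turned in PBS vs UNT (0.29) and *Nagk* in RGLS4326 vs PBS (0.12). In single blocks, PBS vs UNT turned for *Plekha3* (0.023) and *Clock* (0.23) in block 2 and for *Polq* (-0.055) and *Mtf1* (-0.043) in block 3, RGLS4326 vs PBS for *Mtf1* (-0.033) and *Nagk* (0.046) in block 1, and RGLS4326 vs UNT for *Zfp367* (0.0099) in block 2. *Nagk* in RGLS4326 vs PBS ran from -0.054 to 0.037 with 1 mouse left out (without PBS 4 or 9 or RGLS4326 11 it was above 0). Without single mice, PBS vs UNT lost *Plekha3* (PBS 1, 4, 6, 8, 10, 11 and UNT 3, 10), *Polq* (PBS 1, 3, 7, 8 and UNT 3, 4, 6, 7), *Mtf1* (PBS 1 and UNT 4) and *Ddhd1* (PBS 2, 3, 5, 7, 9 and UNT 4, 6, 11, 12), RGLS4326 vs UNT lost *Clock* (RGLS4326 5, 6) and gained *Plekha3* (UNT 10), and RGLS4326 vs PBS gained *Ddhd1* (PBS 3, 5, 7 and RGLS4326 1, 3, 4, 8, 10). The causes were not tested.

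With the replicate number as a block, 7 members were called in PBS vs UNT (*Plekha3* and *Ddhd1* lost, adjusted p = 0.0612 and 0.0825), 6 in RGLS4326 vs PBS and 9 in RGLS4326 vs UNT, and 12781, 5098 and 12162 genes. The numbers do not pair the mice: same-numbered libraries correlated at -0.24 to 0.45 in RGLS4326 vs PBS, and 1 of 11 correlated best with its own number.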
